A study of Mus musculus with 12 samples.

Results

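The SOCS and PIM feedback genes were Socs1, Socs2, Socs3, Socs5, Socs7, Cish, Pim1 and Pim2, chosen by name, and all 8 were found among the 11077 genes listed in the Th17 versus Th0 table and the 11056 genes listed in the iTreg versus Th0 table. All 8 also passed the filter on low values, which left 10269 and 10208 genes for testing. The series holds 12 RNA-seq libraries of mouse CD4+ T cells, 4 from each of 3 culture conditions, and asks how the mRNAs of cells driven towards the Th17 or the induced regulatory T cell (iTreg) fate differ from those of cells that were only activated. Naive CD4+CD62L+ T cells came from spleens of C57BL/6 mice aged 8 to 10 weeks and carried no engineered allele. Every group received plate-bound anti-CD3 and anti-CD28 (1 µg/mL each) and was cultured for 72 h. Th0 cells received nothing else. Th17 cells received IL6 (30 ng/ml) and TGFβ1 (5 ng/ml) together with anti-IL4 and anti-IFNγ (10 µg/mL each). The iTreg cells received IL2 (10 ng/ml) and TGFβ1 (10 ng/ml). TGFβ1 was thus present in both polarized groups, at unequal doses per the labels. The study's methods give a higher TGFβ1 dose for iTreg cultures than the labels do. IL6 was added to Th17 cells only and IL2 to iTreg cells only. These are populations polarized in a dish, not sorted by fate, and a difference in mRNA per cell cannot be told apart from a difference in the share of cells that took a fate.

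Cytokine receptors signal through JAK kinases and STAT transcription factors, and activated STATs switch on genes that feed back on the same signal. SOCS proteins and CIS (the product of Cish) carry an SH2 domain that binds phosphotyrosine and a SOCS box that recruits an elongin and cullin ubiquitin ligase. SOCS3 is best known for docking on gp130, the signalling chain of the IL6 receptor, SOCS1 for blocking JAK kinases downstream of interferons, and CIS and SOCS2 for restraining receptors that work through STAT5, the STAT of IL2. PIM kinases are also switched on by STATs but act on growth and survival, and they are held to be active as soon as they are made.

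The 8 genes are protein-coding and lie apart in the genome (GRCm38). Those that passed a test in at least 1 comparison were Socs1 (chr16:10782240-10785536, minus strand), Socs2 (chr10:95385362-95417180, minus strand), Socs3 (chr11:117966079-117970047, minus strand) and Cish (chr9:107296026-107302784, plus strand). The others were Socs5 (chr17:87107679-87137839, plus strand), Socs7 (chr11:97362551-97398542, plus strand), Pim1 (chr17:29490753-29496112, plus strand) and Pim2 (chrX:7878262-7883432, plus strand).

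Among the called members whose 300-base promoter window was at hand, the letters TTCNNNGAA, a motif bound by STAT dimers, were found in 2 windows. The short stretches around these matches are shown. The motif reads the same on both strands. The windows, from RefSeq on GRCm38.p6, run from 250 bases before to 50 bases after a start site. For Socs3 and Cish that start site and the stretch shown lie inside the gene bounds given above, downstream of their 5′ ends. The Socs3 stretch lies at chr11:117969501-117969530 on the minus strand, in no annotated exon of Socs3, and spans bases 87 to 116 of its window. The Cish stretch lies at chr9:107296654-107296683 on the plus strand, in the 5′ UTR of transcript Cish-201, spans bases 246 to 275, and holds 2 matches. Capitals mark the matches, and the sequences are written 5′ to 3′ on the strand of the gene.
Socs3: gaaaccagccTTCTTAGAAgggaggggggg
Cish: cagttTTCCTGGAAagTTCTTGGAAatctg
Of all 32851 windows, 8.30% held at least 1 match and 0.457% held 2 or more. The windows of Socs1, Pim1 and Pim2 held none. A match is a description of letters, and factor binding was not measured here. Socs2, the remaining called member, had no window.

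The mRNA level is given as FPKM, fragments scaled to library size and to the length of the gene, which allows levels to be compared between genes. Depth was of the same order in all groups, with the highest median in iTreg and the lowest in Th0 libraries. The whole reads behind the FPKM values could be recovered, and they summed over the listed genes to 7274841 to 9394831 in Th0, 7818962 to 9578929 in Th17 and 9374265 to 10801531 in iTreg libraries. The fate markers were checked against the labels. Il17f, a Th17 cytokine, was at 281 to 788 FPKM in Th17 and at or under 0.184 FPKM in Th0 libraries, and Foxp3, the defining factor of regulatory T cells, was at 62.0 to 91.7 FPKM in iTreg and 2.01 to 7.15 FPKM in Th0 libraries of that table. Other fate markers crossed the groups. Il17f was also 26.9 to 99.2 FPKM in iTreg libraries. Ccr6, a Th17 marker, was 11.4 to 27.8 FPKM in iTreg, 1.90 to 9.78 FPKM in Th17 and at most 1.29 FPKM in Th0 libraries. Il17f and Ccr6 passed the filter on low values only through the polarized group and had to come out higher, so no test of them is given. Ctla4, a regulatory T cell marker, was called in Th17 (log2 difference 1.77, limma adjusted p = 3.4e-04) and not in iTreg cells (0.46, adjusted p = 0.17). Ikzf4, another such marker, went the other way. It was called in iTreg (2.42, limma adjusted p = 8.4e-04) and not in Th17 cells (0.76, adjusted p = 0.15). Il2ra, also a marker on that list, was called in both. None of the 3 NK cell markers was listed, 1 of 5 B cell markers was listed with at most 3.84 FPKM in any library, and 1 of 2 CD8 markers with at most 6.60 FPKM. Of 5 myeloid markers, 2 were listed in the Th17 table, where they summed to 3.34 to 5.03 FPKM in Th0 and 5.58 to 16.5 FPKM in Th17 libraries. The 4 T cell markers summed to 668 to 1463 FPKM in Th0, 443 to 836 FPKM in Th17 and 559 to 827 FPKM in iTreg libraries.

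A library of the Th17 group, headed M43_5, stood apart from the other 3 in ways that touch the members. Foxp3 was 0.499, 0.502 and 4.50 FPKM in the Th17 libraries headed M22_5, M29_5 and M42_5 and 42.5 FPKM in M43_5, while Il17f in M43_5 was 366 FPKM, inside the range of the others. M43_5 also held the highest level in the Th17 group of Socs2, Socs3, Cish, Pim1 and Pim2. The values of these 5 members in Th17 cells are therefore given with and without it. In the sentences below, the 4 libraries of a group are always in the order of headings that begin M22, M29, M42 and M43. These headings do not carry the experiment numbers of the labels, so no library was paired with another.

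**Figure D1:**
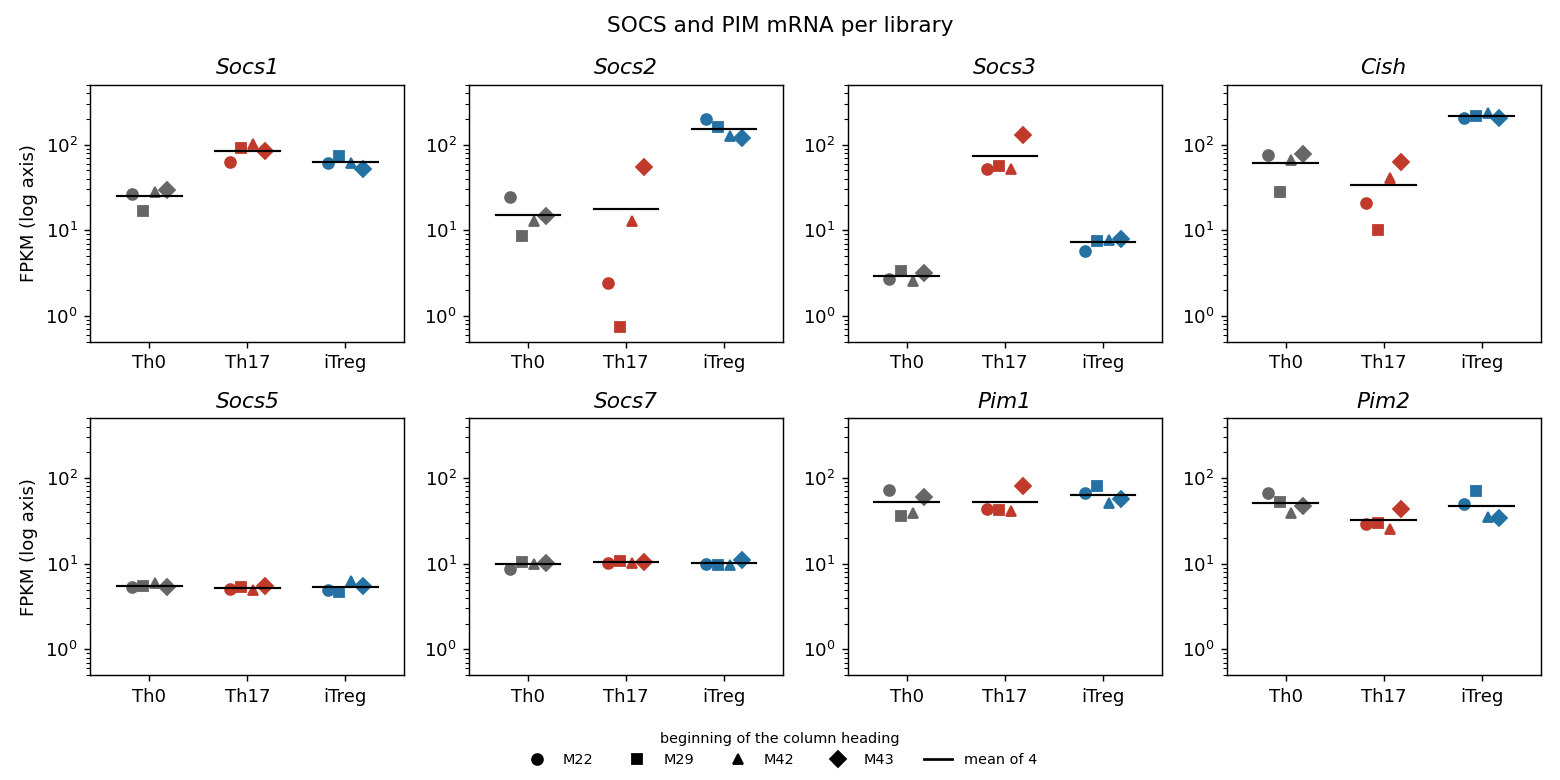
Each panel plots the FPKM of 1 gene (log axis) in the 4 Th0, 4 Th17 and 4 iTreg libraries, with a symbol for the beginning of the column heading and a line at the group mean; Th0 and Th17 values are from the Th17 versus Th0 table and iTreg values from the iTreg versus Th0 table. Socs3 rises from 2.54 to 3.32 FPKM in Th0 to at least 52.5 FPKM in Th17 cells, Socs2 and Cish are highest in iTreg cells, Socs2 is scattered over the Th17 libraries from 0.731 to 54.7 FPKM, and Socs5 and Socs7 lie close together in all 3 groups.

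In Th17 cells compared to Th0 cells, 2 of the 8 members were up-regulated, Socs3 and Socs1, and none was called down-regulated by limma at a false discovery rate (FDR) of 0.05 over all tested genes. The background was 10.6% of tested genes called higher and 8.69% called lower in Th17 cells. Of the members with a lower value, Pim2 had an unadjusted p under 0.05 and was called by limma-voom. In both called members the groups did not overlap, as held for 13.2% of tested genes with Th17 higher; no member lay wholly lower in Th17, as 10.6% of tested genes did.

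Socs3, the feedback inhibitor of gp130, was the lowest of the 8 members in every Th0 library, at 2.70, 3.32, 2.54 and 3.18 FPKM. In Th17 cells it was 52.5, 55.7, 52.6 and 131 FPKM. Every Th17 library lay far above every Th0 library, and 3 of the 4 Th17 libraries were nearly the same, with M43_5 above them. The means were 2.93 ± 0.376 and 72.9 ± 38.7 FPKM (SD, n = 4), a ratio of 24.9. On the log2(FPKM + 1) scale, on which the added 1 shrinks the change of a low gene, the difference was 4.12 (SE 0.28, 95% interval 3.48 to 4.76, limma adjusted p = 3.4e-05) and ranked 19th among 10269 genes ordered from the most up-regulated. The exact two-sided permutation test over the 70 arrangements of the libraries gave p = 0.029, the smallest it can give. Without M43_5 the difference was 3.80 (SE 0.11, adjusted p = 4.7e-06), so that the call did not rest on that library. The Th0 level rested on 55 to 81 reads a library, for which counting alone gives an error of about 13% at the lowest.

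Socs1, the JAK inhibitor of the family, was 26.8, 17.0, 28.0 and 29.6 FPKM in Th0 and 62.2, 90.9, 103 and 84.9 FPKM in Th17 cells. The lowest Th17 library was well above the highest Th0 library. The means were 25.4 ± 5.67 and 85.3 ± 17.2 FPKM (SD, n = 4), a ratio of 3.36, with a log2 difference of 1.72 (SE 0.21, limma adjusted p = 6.0e-04) that ranked 193rd. The value without M43_5 was 1.71.

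Socs2 and Cish, the members tied to STAT5, did not pass the test in Th17 cells, and both varied widely between Th17 libraries. Socs2 was 24.4, 8.59, 12.7 and 14.7 FPKM in Th0 and 2.41, 0.731, 12.9 and 54.7 FPKM in Th17 cells. A pair of Th17 libraries lay below every Th0 library, another lay among them and M43_5 lay above all of them. The spread, 74.8-fold from the lowest to the highest Th17 library, gave an SD of 2.23 on the log2 scale, the third largest of 10269 genes, beside a median of 0.22. The lowest level rested on 19 reads, with a counting error of 23%. The means, 15.1 ± 6.70 FPKM in Th0 and 17.7 ± 25.3 FPKM in Th17 cells (SD, n = 4), and the log2 values differed in sign. The log2 difference was -0.88 (SE 0.95, 95% interval -3.04 to 1.28, limma adjusted p = 0.57). It was -1.80 (SE 0.67, adjusted p = 0.11) without M43_5 and -0.13 (SE 0.83, adjusted p = 0.94) without M29_5. The interval holds both a large fall and a rise of more than 1 log2 unit, so no common level of Socs2 in Th17 cells can be read from these 4 libraries.

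Cish was 75.9, 28.1, 66.0 and 76.9 FPKM in Th0 and 20.6, 10.2, 41.2 and 62.7 FPKM in Th17 cells. Within each heading beginning the Th17 value was below the Th0 value, but the groups overlapped. The log2 difference was -1.04 (SE 0.54, 95% interval -2.27 to 0.18, limma adjusted p = 0.22), with -1.43 (adjusted p = 0.10) without M43_5 and -0.59 (adjusted p = 0.45) without M29_5. The SD of Cish among Th17 libraries was 1.10 on the log2 scale, larger than that of 99.4% of tested genes, and among Th0 libraries it was 0.68, larger than that of 96.9%. The libraries M29_1 and M29_5 held the lowest Cish of their groups, and the same held for Socs2. In the annotation, 11.5% of the exonic bases of Cish overlap the antisense genes Gm17040 and Gm17041, and without strand the reads of such bases cannot be told apart.

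Neither PIM kinase passed the test. Pim1 was 72.5, 36.4, 39.5 and 60.8 FPKM in Th0 and 44.1, 42.3, 41.5 and 80.3 FPKM in Th17 cells. The groups overlapped throughout, with a log2 difference of -0.01 (SE 0.28, 95% interval -0.64 to 0.63, limma adjusted p = 0.99), and of -0.23 (adjusted p = 0.57) without M43_5. M43_5 alone held a high value among Th17 libraries, and 14.5% of the exonic bases of Pim1 overlap the antisense gene Gm26885. Pim2 was 68.0, 53.0, 38.9 and 47.8 FPKM in Th0 and 28.9, 30.1, 25.3 and 44.0 FPKM in Th17 cells. All but M43_5 lay below every Th0 library, and within each heading beginning the Th17 value was the lower. The means were 51.9 ± 12.2 and 32.1 ± 8.22 FPKM (SD, n = 4), and the log2 difference of -0.68 (SE 0.21, 95% interval -1.15 to -0.21) narrowly missed the threshold (limma adjusted p = 0.052, exact permutation p = 0.057). Pim2 was called without M43_5 (-0.84, adjusted p = 0.021), and also with that library kept when the Th0 library M42_1 was left out (-0.81, adjusted p = 0.038), when libraries were shifted to the same median (-0.72, adjusted p = 0.034) and by limma-voom (-0.70, adjusted p = 0.046).

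Socs5 and Socs7 had narrow intervals around 0. Socs5, a family member linked to receptors of IL4 and of epidermal growth factor, was 4.95 to 5.43 FPKM in Th17 and 5.37 to 5.95 FPKM in Th0 libraries (log2 difference -0.07, 95% interval -0.27 to 0.12, limma adjusted p = 0.61). Socs7 was 10.1 to 10.7 FPKM in Th17 and 8.62 to 10.5 FPKM in Th0 libraries (log2 difference 0.08, 95% interval -0.14 to 0.29, limma adjusted p = 0.62). Their SDs among Th17 libraries, 0.05 and 0.04 on the log2 scale, were larger than those of 2.31% and 0.906% of tested genes. The intervals leave room for no more than 0.29 log2 units in either direction. These levels rested on 184 to 228 and 583 to 725 reads in Th17 libraries.

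In iTreg cells compared to Th0 cells, 4 of the 8 members were up-regulated, Socs2, Cish, Socs1 and Socs3, and none was called down-regulated by limma or limma-voom or had a lower value with an unadjusted p under 0.05. Limma called 8.36% of tested genes higher and 8.21% lower in iTreg cells. The groups did not overlap in any of the 4, as held for 11.7% of tested genes with iTreg higher, and no member lay wholly lower, beside 11.0% of tested genes. The Th0 libraries are the same 4 as in the Th17 comparison, scaled anew with the iTreg libraries, so the 2 comparisons are not independent.

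Socs2 was 199, 160, 126 and 119 FPKM in iTreg cells, against 24.1, 8.52, 12.6 and 14.5 FPKM in Th0. All iTreg libraries lay far above all Th0 libraries and within 1.67-fold of each other. The means were 14.9 ± 6.61 and 151 ± 36.6 FPKM (SD, n = 4), a ratio of 10.1, and the log2 difference of 3.31 (SE 0.29, 95% interval 2.66 to 3.97, limma adjusted p = 1.6e-04) ranked 31st of 10208. The iTreg values rested on 2867 to 5851 reads a library.

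Cish was the most abundant member in every iTreg library, at 207, 216, 232 and 206 FPKM, against 75.0, 27.9, 65.2 and 75.9 FPKM in Th0. Its iTreg values were tightly grouped, with an SD of 0.08 on the log2 scale that exceeded that of 9.78% of tested genes, although Cish was among the more variable genes in both other groups. The means were 61.0 ± 22.6 and 215 ± 12.3 FPKM (SD, n = 4), with a log2 difference of 1.90 (SE 0.29, 95% interval 1.24 to 2.57, limma adjusted p = 0.0030) that ranked 129th.

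Socs1 and Socs3 were up-regulated in iTreg cells too. In Th0 Socs1 was 26.5, 16.9, 27.7 and 29.2 FPKM, and with IL2 and TGFβ1 it was 61.4, 73.0, 61.2 and 52.5 FPKM, a log2 difference of 1.29 (SE 0.18, limma adjusted p = 0.0019). In Th0 Socs3 was 2.66, 3.29, 2.51 and 3.15 FPKM, and in the iTreg libraries it was 5.75, 7.51, 7.70 and 7.96 FPKM, a log2 difference of 1.07 (SE 0.12, limma adjusted p = 6.3e-04). Socs3 thus rose 2.49-fold in means but stayed low, near Socs5. Each of the 4 called members had an exact permutation p of 0.029.

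The other 4 members did not pass in iTreg cells, and their groups overlapped. Pim1 was 66.5, 81.8, 51.3 and 56.6 FPKM in iTreg cells (log2 difference 0.34, 95% interval -0.21 to 0.89, limma adjusted p = 0.40). Pim2 was 50.5, 70.6, 35.2 and 34.2 FPKM (log2 difference -0.14, 95% interval -0.72 to 0.44, adjusted p = 0.77). Socs5 was 4.67 to 6.36 FPKM and Socs7 9.70 to 11.1 FPKM, with adjusted p-values of 0.87 and 0.74.

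**Figure D2:**
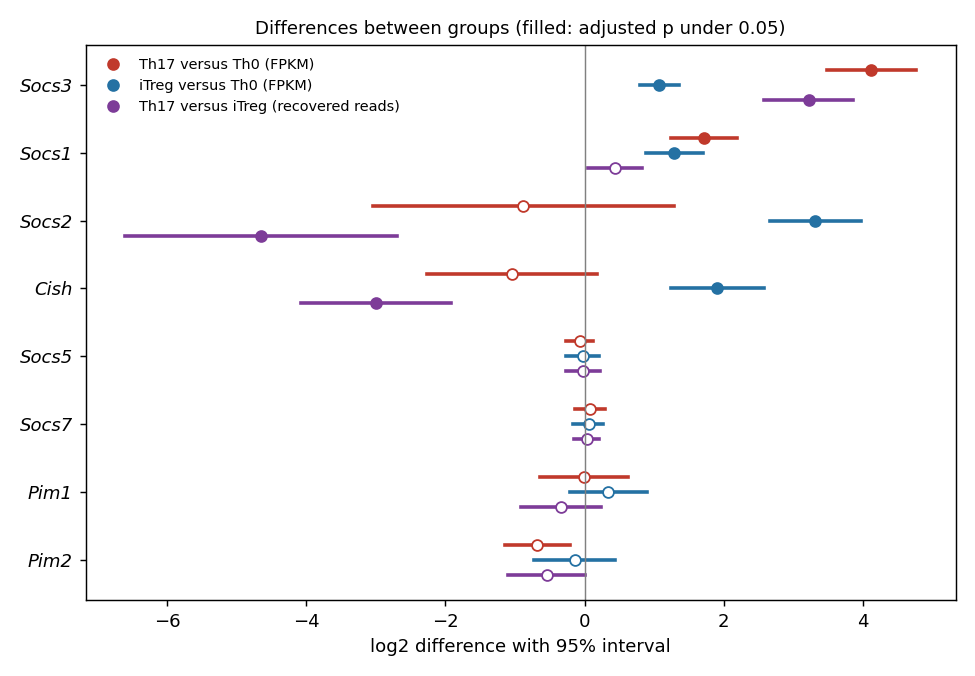
Log2 differences of the 8 members (x axis, points) with 95% intervals (bars) for Th17 versus Th0 and iTreg versus Th0, from FPKM, and for Th17 versus iTreg, from recovered reads; filled points have an adjusted p under 0.05 over all tested genes. Socs3 lies to the right in Th17 cells, Socs2 and Cish lie to the left in Th17 versus iTreg, and the intervals of Socs5 and Socs7 are narrow around 0.

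Th17 and iTreg cells were also set against each other, with limma-voom on the recovered reads of all 12 libraries, since the 2 tables had been scaled separately. This comparison was added after the data had been seen. Of the 8 members, 3 differed, Socs3 higher in Th17 cells and Socs2 and Cish higher in iTreg cells, beside a background of 7.32% of 10009 genes higher in Th17 and 6.26% higher in iTreg cells. On a common scale, reads over library size (RPM), Socs3 was 200 ± 108 RPM in Th17 and 19.8 ± 2.67 in iTreg libraries (SD, n = 4), a log2 difference of 3.22 (SE 0.29, 95% interval 2.58 to 3.86, adjusted p = 5.1e-05). Socs2 was 48.2 ± 69.2 RPM in Th17 and 410 ± 101 in iTreg libraries, a log2 difference of -4.65 (SE 0.90, 95% interval -6.60 to -2.70, limma-voom adjusted p = 0.0054). The highest Th17 library, at 150 RPM, was still below the lowest iTreg library, at 320. Cish was 73.3 ± 50.9 and 469 ± 29.3 RPM, a log2 difference of -3.00 (SE 0.50, 95% interval -4.08 to -1.92, limma-voom adjusted p = 0.0023). Without M43_5 these differences were 2.90, -5.74 and -3.41, and without M29_5 those of Socs2 and Cish were -3.59 (adjusted p = 0.014) and -2.51 (adjusted p = 0.0035), each still called.

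Socs1 rose in both polarized groups and was not called between them. Its means were 115 ± 22.5 RPM in Th17 and 83.7 ± 11.4 in iTreg libraries, and the log2 difference of 0.44 (95% interval 0.05 to 0.83, limma-voom adjusted p = 0.13) did not pass. The interval does not show that the levels were equal. For Pim2 the limma-voom difference was -0.54 (95% interval -1.10 to 0.01, adjusted p = 0.19), and for Pim1 -0.34 (95% interval -0.91 to 0.23, adjusted p = 0.43). The estimates of Socs5 and Socs7 were within 0.03 log2 units of 0, with 95% intervals of -0.27 to 0.22 and -0.15 to 0.21.

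Ratios between members within a library do not depend on how libraries were scaled. Socs3 over Cish, in FPKM, was 0.0355 to 0.118 in Th0, 1.28 to 5.47 in Th17 and 0.0277 to 0.0387 in iTreg libraries. Socs3 thus exceeded Cish in every Th17 library and was a small share of Cish in all others, M43_5 included on the Th17 side at 2.09. Socs3 over Socs2 was 0.110 to 0.386 in Th0 and 0.0289 to 0.0670 in iTreg libraries, and in Th17 libraries it was 21.8, 76.3, 4.08 and 2.39. These groups did not overlap, and the Th17 values ran over a wide range, as those of Socs2 did. Cish over Socs2 was 3.11 to 5.23 in Th0, 1.04 to 1.85 in iTreg and 1.15 to 13.9 in Th17 libraries, with M43_5 the lowest and inside the iTreg range. Pim1 over Pim2 was 0.687 to 1.27 in Th0, 1.41 to 1.82 in Th17 and 1.16 to 1.65 in iTreg libraries.

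**Figure D3:**
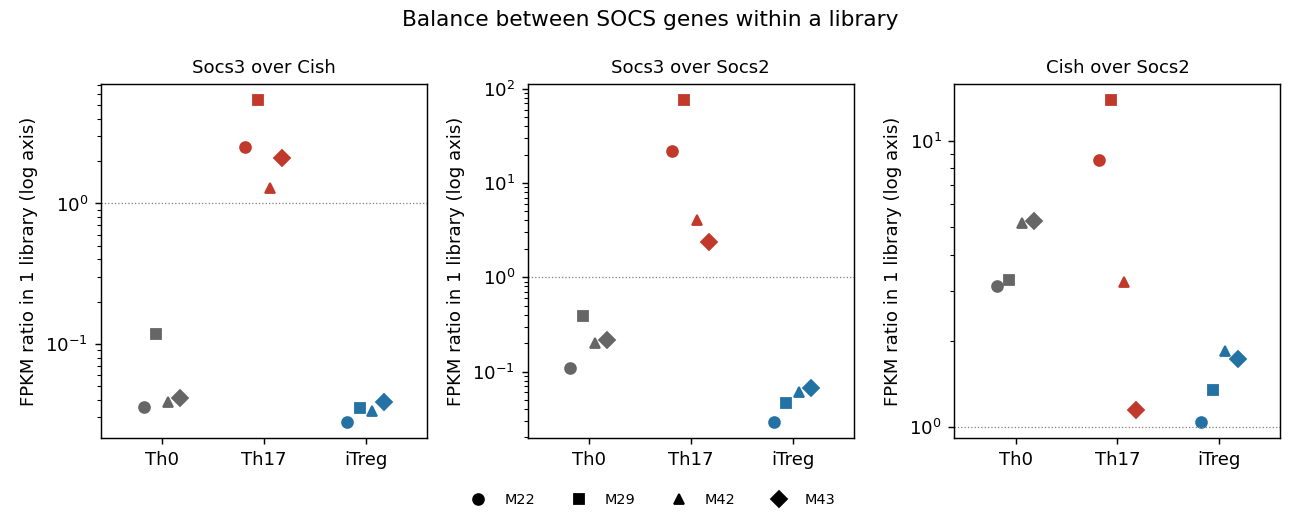
FPKM ratios of 2 SOCS genes within a library (log axes; dotted line at 1) in Th0, Th17 and iTreg libraries, with a symbol for the beginning of the column heading. Socs3 exceeds Cish and Socs2 in all 4 Th17 libraries and in no other library, and Cish over Socs2 in the Th17 libraries runs from 13.9 down to 1.15 in M43_5.

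The genes most like each called member were named by the smallest root mean square difference of their 16 values (8 libraries in each table, log2 scale, relative to the Th0 mean), over 10079 genes tested in both tables. For Socs2 these were Foxp3 at 0.72, Lrrc32 at 0.79 and Cish at 0.92 log2 units. For Socs3 they were Cyp1b1 at 0.33, Cxcr5 at 0.47 and Gpr15 at 0.52. For Socs1 they were Eif4e3 at 0.25, Uba1 at 0.28 and Foxo1 at 0.31, and for Cish they were Fam46a at 0.46, Angptl2 at 0.52 and Mpp1 at 0.53. The values share their Th0 libraries, and likeness is a description with no test.

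Foxp3 was chosen as the gene most like Socs2 over values that include the 4 Th17 libraries, so their likeness in that group follows from the choice and is given as a description. Socs2 of 2.41 and 0.731 FPKM stood beside Foxp3 of 0.499 and 0.502 FPKM, Socs2 of 12.9 FPKM beside Foxp3 of 4.50 FPKM, and Socs2 of 54.7 FPKM beside Foxp3 of 42.5 FPKM. The order of the Th17 libraries by Socs2 was M29_5, M22_5, M42_5 and M43_5, and the order by Cish was the same. Il17f, at 492, 281, 788 and 366 FPKM, also rose in that order over M29_5, M22_5 and M42_5 and departed from it only in M43_5. Foxp3 and Socs2 each had a wide spread in the Th17 group, and what part Foxp3-expressing cells had in it was not tested.

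**Figure D4:**
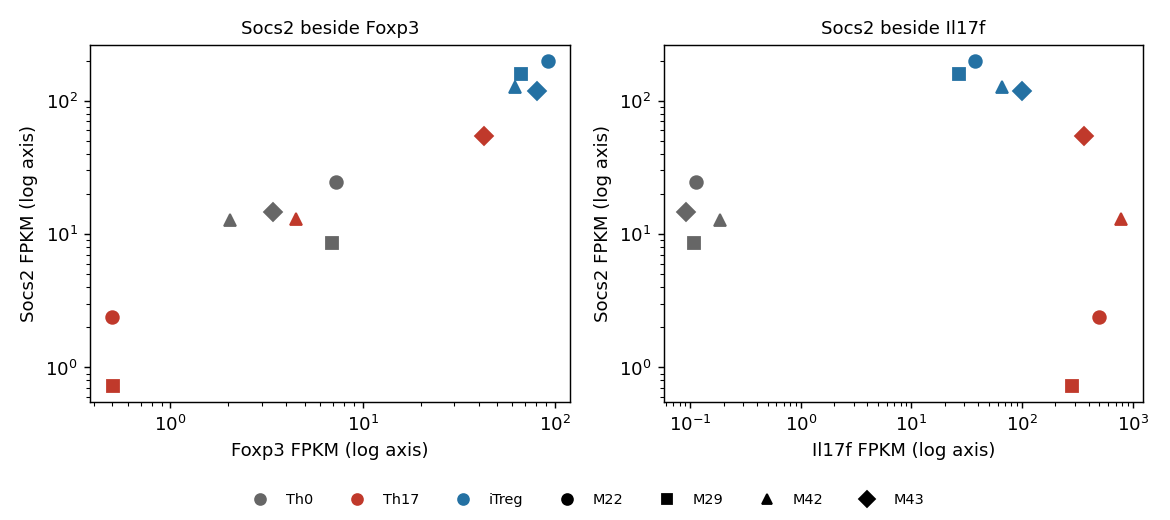
Socs2 (y axis) against Foxp3, chosen for its likeness to Socs2 over these libraries (left) and Il17f (right), in FPKM on log axes, for the 12 libraries, coloured by group and with a symbol for the beginning of the column heading. In the Th17 group Socs2 and Foxp3 are both lowest in M22_5 and M29_5 and highest in M43_5, where Foxp3 is 42.5 FPKM, while Il17f is over 280 FPKM in all 4 Th17 libraries.

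The remaining family members, Socs4, Socs6 and Pim3, were listed and tested in both tables and limma called 0 of 3 in each, with 1 of 3 at an unadjusted p under 0.05 in Th17 and 2 of 3 in iTreg cells and 0 of 3 called by limma-voom in either. Socs6 was 8.06, 7.31, 7.78 and 8.75 FPKM in Th17 and 5.61, 6.15, 6.87 and 6.74 FPKM in Th0 libraries, a log2 difference of 0.29 (adjusted p = 0.082). The 4 subunits of the ligase that the SOCS box recruits, Tceb1, Tceb2 (elongins C and B), Cul5 and Rnf7, gave 0 of 4 calls by limma in each comparison with Th0, 0 at an unadjusted p under 0.05 and 0 by limma-voom. The median log2 difference of the 4 was -0.03 in Th17 and 0.06 in iTreg cells.

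The lists that follow are read beside the shares of all tested genes given above, 10.6% higher and 8.69% lower in Th17 and 8.36% higher and 8.21% lower in iTreg cells. Some of the receptor chains that SOCS proteins act on were up-regulated. In Th17 cells 6 of 10 were up-regulated (Il2ra, Il2rb, Il4ra, Il6st, Il7r and Ifngr2), with a median log2 difference of 1.11 beside 0.00 over all tested genes, and in iTreg cells 3 of 10 (Il2ra, Il2rb and Ifngr2), with a median of 0.50 beside 0.01. Il6st, which encodes gp130, the chain that SOCS3 binds, was 24.7 ± 13.0 FPKM in Th0 and 59.6 ± 14.3 FPKM in Th17 cells (SD, n = 4), and the groups overlapped (log2 difference 1.34, SE 0.35, limma adjusted p = 0.029). In iTreg cells Il6st differed by -0.10 (adjusted p = 0.89). Il2ra, the inducible chain of the IL2 receptor, rose by 1.10 (limma adjusted p = 0.029) in Th17 and 1.76 (adjusted p = 0.0030) in iTreg cells. In Th17 cells the call of Il2ra was lost without M43_5 (0.90, adjusted p = 0.065).

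Of 10 JAK kinases and STAT factors, 4 were up-regulated and 1 down-regulated in Th17 cells, with a median log2 difference of 0.27, and 3 were up- and 1 down-regulated in iTreg cells, with a median of -0.09. Stat3, the factor of IL6, was 50.5 to 56.2 FPKM in Th0 and 156, 159, 174 and 163 FPKM in Th17 cells, a log2 difference of 1.62 (SE 0.09, limma adjusted p = 1.1e-05), and rose by 0.65 (adjusted p = 0.0011) in iTreg cells. Stat5b rose by 0.89 (adjusted p = 4.5e-04) in Th17 and by 1.02 (adjusted p = 1.5e-04) in iTreg cells. Stat5a rose by 1.10 (adjusted p = 0.0046) in iTreg cells and did not pass in Th17 cells (0.61, adjusted p = 0.096). Stat4, the factor of IL12, fell in both (-2.29, adjusted p = 4.3e-05, and -2.01, adjusted p = 1.4e-04). Of 10 other inhibitors of the pathway, 2 rose and 3 fell in Th17 cells, both above the shares of all tested genes (10.6% and 8.69%). In iTreg cells 1 rose and 1 fell, which is near those shares there (8.36% and 8.21%). The phosphatase gene Ptpn11 fell in both (-1.01, adjusted p = 4.2e-04, and -0.92, adjusted p = 0.0023), and Ptpn1 rose in both (0.45, adjusted p = 0.025, and 0.57, adjusted p = 0.0069).

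Targets of the STATs were tested next. Of 8 targets of STAT3 examined, Il17a, Il17f, Il21, Il23r and Il10 passed the filter on low values in the Th17 table only through the Th17 group and had to come out higher, so no count is given over the list. The other 3, all transcriptional regulators over 1 FPKM in every Th0 library, were Batf, with a log2 difference of 2.26 (limma adjusted p = 4.1e-04) in Th17 and 0.09 (adjusted p = 0.75) in iTreg cells, Bcl3, with 2.70 (adjusted p = 1.3e-04) and 0.72 (adjusted p = 0.093), and Maf, with 5.46 (adjusted p = 7.0e-05) and 4.18 (adjusted p = 4.1e-04). Of 8 tested targets of STAT5, 1 rose (Il2ra) and 2 fell (Bcl2 and Ccnd2) in Th17 cells, with a median of -0.15, and 3 rose (Il2ra, Foxp3 and Osm) and 1 fell (Ccnd2) in iTreg cells, with a median of 0.33. Osm, at 7.71, 4.14, 7.60 and 33.0 FPKM, and Bcl2, at 5.95, 8.06, 7.96 and 20.5 FPKM, were also highest in M43_5 among Th17 libraries. Without that library their log2 differences were -0.16 (limma adjusted p = 0.67) and -1.74 (adjusted p = 0.00020). In the IL4 and STAT6 group 2 of 5 genes were tested, and in Th17 cells Il4ra rose and Gata3 fell, whereas in iTreg cells limma and limma-voom called 0 of 2, with 1 at an unadjusted p under 0.05. Of 11 PIM substrates, 1 rose (Cxcr4) in Th17 cells, and 2 rose (Eif4ebp1 and Myc) and 1 fell (Chek1) in iTreg cells; the counts of 1 are near the shares of all tested genes.

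Il2, the gene of the cytokine that was added to iTreg cultures only and that signals through STAT5, was looked up after these values had been seen. It was 34.3, 19.0, 42.7 and 56.3 FPKM in Th0 and 3.37, 5.82, 3.38 and 3.64 FPKM in Th17 cells (log2 difference -2.88, limma adjusted p = 3.0e-04), and 1.26 to 3.54 FPKM in iTreg cells (-3.47, adjusted p = 3.5e-04). The Th0 library lowest in Il2, M29_1, was also the lowest of that group in Socs1, Socs2, Cish and Pim1. M29_1 stood apart in other genes too. Bcl2l1 was 17.1 FPKM in it, against 43.5 to 49.9 FPKM in the other Th0 libraries, and Jak2 was 53.2 FPKM, against 101 to 123 FPKM. Low values in M29_1 were thus seen in further genes, of which Bcl2l1 is itself among the STAT5 targets examined. Their cause was not tested. In the Th17 group the order of Il2 was not that of Socs2 or Cish.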

How the data were processed

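The deposited tables hold FPKM per gene for 4 Th0 and 4 Th17, and for the same 4 Th0 and 4 iTreg libraries. The authors aligned paired reads to mm10 with TopHat2 2.0.14 and counted exons with HTSeq (union, without strand). They removed genes without more than 1 CPM in at least 4 samples and used edgeR with a pair-wise design. The annotation and the FPKM step are not given in the sources used here. Their fold-change, CPM, likelihood-ratio, p-value and FDR columns were not used. Columns were grouped by heading.

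Each table was tested with limma 3.58.1 (R 4.3.3) on log2(FPKM + 1), for genes over 1 FPKM in at least 4 of 8 libraries, with Benjamini-Hochberg adjustment over all tested genes. Members were also compared by exact two-sided permutation of log2(FPKM + 1). In both tables FPKM steps gave whole reads for 100% of genes (tolerance 0.02), although the Th0 reads so recovered were the same in both tables for 10810 of 10886 shared genes (99.30%), the members among them. These reads were tested with limma-voom, scaled by the median ratio, as an addition after the data had been seen. Counting errors come from those reads and cover counting only. Scripts were tested on simulated data. All 8 members, the gene lists, the rule for likeness and the marker lists were chosen with earlier results of these data known. Named genes were the members, the called genes of the lists, those needed to read a member's result and the 3 genes most like each called member. Coordinates are from GENCODE vM21 (GRCm38, the same assembly as mm10). Alternatives were other pseudocounts, filters, scalings, limma settings and thresholds, and leaving out each library. Some genes and 1 gene list are not reported here, and list counts leave them out.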

Additional observations from a re-analysis of the deposited data

Results flagged for a closer look

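In 2 of the 24 groups of 4 libraries examined (8 members in 3 groups), the highest library was farther from the others than Dixon's 95% limit allows. Chance flags about 1 in 20 groups. Socs3 in Th17 cells was 131 FPKM in M43_5, against 52.5 to 55.7 FPKM in the other 3 libraries, a gap of 0.958 of the whole range. Pim1 in Th17 cells was 80.3 FPKM in the same library, against 41.5 to 44.1 FPKM in the others, a gap of 0.933 of the range. Socs2, although its spread among Th17 libraries was far larger, was not set apart in this way. M43_5 was also the Th17 library with the highest Foxp3, and its part in these values was not tested.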

How the results depend on the processing

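In Th17 versus Th0, Socs3 (log2 difference 3.80 to 4.51) and Socs1 (1.54 to 1.86) kept their call under all 17 alternatives, as did Socs2 (3.09 to 3.56), Cish (1.57 to 2.04), Socs1 (1.12 to 1.37) and Socs3 (1.02 to 1.29) in iTreg versus Th0. In Th17 versus iTreg, Socs3 (2.90 to 3.35), Socs2 (-5.74 to -3.59) and Cish (-3.41 to -2.51) kept theirs under all 9. In Th17 cells Socs2 (-1.80 to -0.13) and Cish (-1.43 to -0.59) passed under none of the 17. Pim2 in Th17 cells (main value -0.68, adjusted p = 0.052) was called under 4 of 17: libraries shifted to the same median (-0.72, adjusted p = 0.034), without the Th0 library M42_1 (-0.81, adjusted p = 0.038), without M43_5 (-0.84, adjusted p = 0.021) and by limma-voom (-0.70, adjusted p = 0.046); the cause was not tested. Members near 0 changed sign without being called: Pim1 in Th17 cells (0.0042 with quantile normalization, -0.23 to 0.17 leaving out a library, above 0 without M22_1, M43_1, M22_5, M29_5 or M42_5), Socs5 in iTreg cells (-0.11 to 0.02, above 0 without M29_4) and Socs5 in Th17 versus iTreg (-0.09 to 0.06, above 0 without M42_5 or M42_4). At an FDR of 0.01 the called genes fell to 995 (574 higher, 421 lower) in Th17 and 778 (449 higher, 329 lower) in iTreg cells, by construction. Leaving out a library gave 1364 to 2237 called genes (770 to 1121 higher, 594 to 1116 lower) in Th17, 1140 to 1521 (615 to 776, 520 to 745) in iTreg cells and 806 to 1384 (460 to 774, 346 to 610) in Th17 versus iTreg. No paired analysis was possible because the column headings do not carry the experiment number of the labels, unless a shared heading beginning is taken to mark an experiment. The sources used here do not state that it does, and a block on heading beginnings was not fitted. Differences shared by libraries of an experiment therefore count here as spread. The missed calls of Cish and Pim2 in Th17 cells rest on unpaired tests, although both were lower within each heading beginning. Depth limits Socs3 in Th0 cells (55 reads at the lowest) and Socs2 in Th17 cells (19 reads).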
